A study of Homo sapiens with 6 samples.

Results

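RNA from 2 libraries of SKM-1 cells that had received vemurafenib was set against RNA from 2 libraries of untreated SKM-1 cells. SKM-1 is an established human line of acute myeloid leukaemia. The treated side held the VEM library, from cells given vemurafenib alone, and the VEM+BOR library, from cells given vemurafenib and the agent that the labels call BOR. The libraries were chosen by their treatment labels, and these 4 are part of the 6 in the study. The other 2 libraries, from cells given BOR alone, are quoted as a reference and enter no main test. The labels do not spell out BOR, and state neither a dose nor an exposure time. All 6 libraries share the cell line, and no label names a mutation or a clone. Whether the untreated libraries came from separate cultures is not stated, so the p-values cover only how far these libraries vary, and that variation may be technical. The treated side differs within itself by BOR, and its spread therefore includes that difference.

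Vemurafenib is an inhibitor of the kinase BRAF that was made for tumours with a mutated BRAF. RAF kinases pass signals from RAS through MEK to ERK, which in turn switches on immediate early transcription factors such as EGR1 and feedback inhibitors such as the dual-specificity phosphatases and the Sprouty proteins. In cells whose BRAF is not mutated, RAF inhibitors are known to be able to raise rather than lower ERK signalling. The integrated stress response is another route by which cells answer a drug: kinases that sense amino acid shortage, misfolded protein or other stress phosphorylate the initiation factor eIF2, most translation slows, and the transcription factor ATF4 is made and turns on genes of amino acid uptake and synthesis. The HIPPO pathway, which the title of the series names together with senescence, is a kinase cascade of MST and LATS kinases that keeps the coactivators YAP1 and WWTR1 out of the nucleus and away from TEAD factors.

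Of 15477 genes tested, 31 rose and 3 fell in the vemurafenib-containing libraries, or 0.22% in either direction, 0.2% higher and 0.0194% lower (limma, Benjamini-Hochberg adjusted p under 0.05). The genes that rose include INHBE, DDIT4, CHAC1, TRIB3, SESN2, SLC7A11, STC2, PSAT1 and VLDLR of the integrated stress response, the myeloid genes PADI4, C5AR1, CLEC5A and OLFM4, the chemokines CCL5 and CCL3, the transcription factor EGR1, and PTGS2 and BCL2A1, which NF-kB is known to induce. The genes that fell were the granule enzyme MPO, the protease ADAMDEC1 and the long non-coding RNA UCA1. Rises ran from 2.46-fold for VLDLR to 24.7-fold for INHBE as ratios of group means, and from 1.30 to 4.52 as log2 differences. All but UCA1 of the 34 were protein-coding. In all 34 the VEM and VEM+BOR values both lay above or both below the range of the untreated pair. The calls were made on these same values, so this adds no support to them. Of all genes tested, 19.4% lay above that range in both libraries and 14.4% below it. At the called share of 0.22%, a short list of genes would rarely hold a call. The absence of a call in a list below therefore does not set that list apart from all genes tested.

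These calls sit close to the threshold. Adjusted p ran from 0.00447 to 0.0482, and 20 of the 34 were above 0.04. At an unadjusted p under 0.05, 968 genes (6.25%) passed, 691 higher and 277 lower. The 34 genes kept their direction in all 20 alternative analyses, but their calls did not all hold. Without untreated 1 the counts were 607 higher and 170 lower, without untreated 2 they were 114 and 39, without VEM 46 and 6, and without VEM+BOR 6 and 1. The 7 of the 34 that still passed without VEM+BOR were INHBE, DDIT4, CHAC1, EGR1, CCL5, PADI4 and UCA1; without VEM 26 passed, and without either untreated library all 34 did. INHBE and DDIT4 passed in 16 of the 20 alternatives, CHAC1 in 15, OLFM4 and CACNA2D1 in 14. A permutation of 2 against 2 libraries cannot give an exact two-sided p below 0.333, so these calls rest on the model fitted across all genes.

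**Figure D1:**
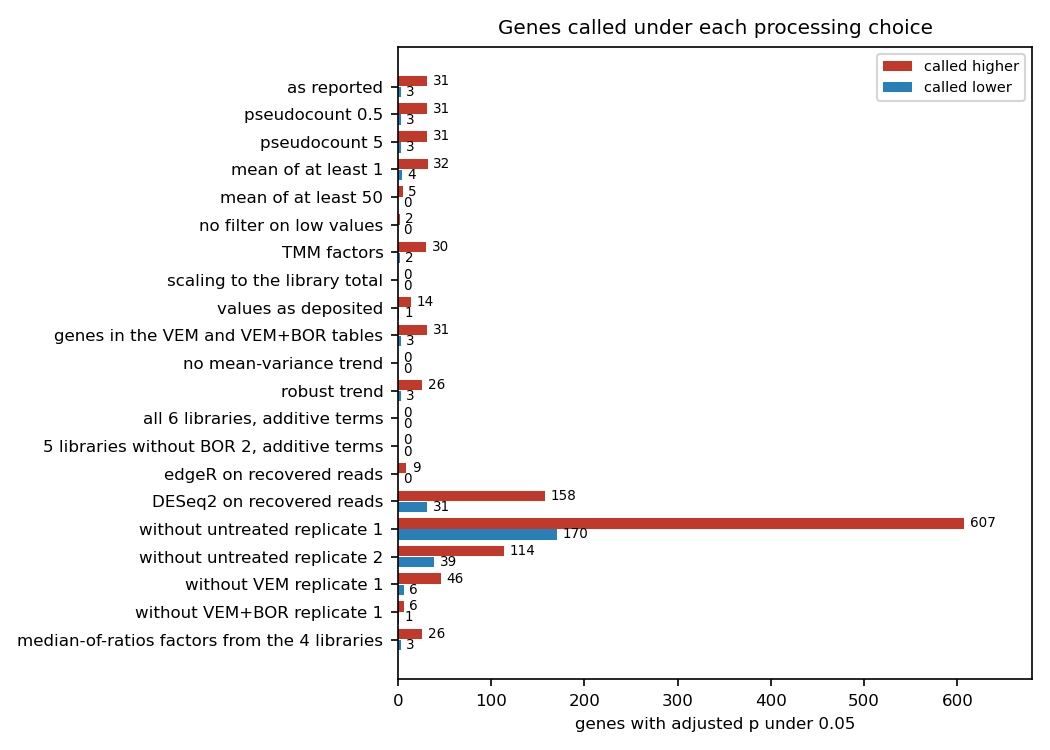
Number of genes with an adjusted p under 0.05 (horizontal axis, linear, from 0) under each processing choice (vertical axis), higher in red and lower in blue, in the vemurafenib-containing against the untreated libraries. The analysis as reported gave 31 and 3; the bars run from 0 and 0 under 4 choices to 607 and 170 without untreated replicate 1.

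The bar chart shows the genes called under each processing choice. Counts depend on which library is left out, on the scaling, on the filter on low values and on how the spread is estimated. They depend less on the pseudocount. The 4 libraries held 17252404 to 18337577 reads assigned to genes. The untreated pair differed more from each other than the treated pair did: the SD of the log2 difference over genes was 0.687 for the untreated pair and 0.488 for VEM against VEM+BOR. Untreated 1 lay as near to VEM (0.486) as VEM+BOR did. Against untreated 1, this SD was 1.53 for BOR 2 and 0.451 for BOR 1. Mitochondrially encoded genes took 5.4% and 5.26% of reads in the untreated pair, 4.44% in VEM and 4.23% in VEM+BOR. Of 32 such genes 23 lay below the untreated range in both treated libraries (against 14.4% of all genes tested) and 0 lay above it (against 19.4%). Of the same 32 genes 0 were called (against 0.22%), and their median was -0.49. The part that this lower share or the spread of the untreated pair plays in the results below was not tested. Of 9 myeloid markers 8 were in the tables, with PTPRC, SPI1, CEBPA, CD33, ANPEP, CSF3R and MPO all well detected and LYZ at 9.81 to 45 normalised read counts in the 4 libraries. Of the markers of other cell types, 4 of 11 for T and NK cells, 5 of 7 for B and plasma cells, 4 of 12 for erythroid cells and megakaryocytes, 5 of 9 for fibroblasts and endothelium and 3 of 6 for epithelium were in the tables. The epithelial markers summed to between 10.1 and 19.4 normalised read counts, and the T and NK sum was mainly CD4, at 1128 to 1852, which myeloid cells also make. NCAM1, of the same T and NK list, was at 553 and 270 in the untreated pair, 589 in VEM and 693 in VEM+BOR. Both treated values of NCAM1 thus lay above the untreated range.

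Of the integrated stress response, 9 genes rose in the vemurafenib-containing libraries (0.2% of all genes tested did) and 0 fell (against 0.0194%). The list named 37 genes, of which 34 passed the filter on low values and were tested. In 30 of the 34 both vemurafenib-containing values lay above both untreated values, against 19.4% of all genes tested, and in none did they lie below, against 14.4%. The median log2 difference was 0.999, beside 0.01 over all genes tested, and it was 1.11 for VEM and 0.92 for VEM+BOR taken singly. Untreated 2 exceeded untreated 1 by a median of 0.22 over the same genes. In bulk RNA, a change in the share of cells that express a gene and a change in RNA per cell cannot be told apart.

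INHBE encodes the beta E chain of activin and is a known target of ATF4. Its level was 16.0 and 15.7 normalised read counts in untreated 1 and 2, 454 in VEM and 327 in VEM+BOR (log2 difference 4.52, SE 0.36, adjusted p = 0.00447). The untreated libraries were nearly equal, and VEM was the higher of the treated pair. INHBE (ENSG00000139269) lies on chromosome 12 at 57452323 to 57459280, plus strand. The reference libraries were at 25.9 (BOR 1) and 687 (BOR 2), so 1 lay near the untreated level and the other above both treated ones.

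DDIT4, also called REDD1, restrains the growth kinase complex mTORC1. It stood at 193 and 148 in the untreated pair, 1758 in VEM and 1238 in VEM+BOR (log2 difference 3.12, SE 0.26, adjusted p = 0.00447). DDIT4 (ENSG00000168209) lies on chromosome 10 at 72273920 to 72276036. Here too the groups were far apart and VEM was above VEM+BOR. BOR 1, at 188, fell within the untreated range, and BOR 2, at 23294, was far above every other library.

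CHAC1 degrades glutathione and is a target of ATF4 and CHOP. It was measured at 101 and 95.1 in the untreated pair, 866 in VEM and 620 in VEM+BOR (log2 difference 2.89, SE 0.27, adjusted p = 0.00833). As with INHBE and DDIT4, the untreated values lay close together and VEM was the highest of the 4. The CHAC1 promoter is shown because ATF4 pairs with C/EBP factors on a composite site, and such letters occur in it. The window, from RefSeq on GRCh38.p14, runs 5′ to 3′ on the plus strand at chr15:40953252-40953279, with the match to TGATGNAA on the opposite strand in capitals; the match begins 209 bases before the RefSeq start site.
CHAC1: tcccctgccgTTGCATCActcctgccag

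The same letters, TGATGNAA on either strand, were found in the promoters of 3 of the 25 called genes that the RefSeq table holds, CHAC1, BCL2A1 and S100P, and in 3.62% of all 35116 promoters of the table. A match is a description of letters and not of a bound factor. The windows for the other two are printed to let the matches be compared. BCL2A1 is read on the minus strand at chr15:79971242-79971269, with the match 63 bases before the start site on the gene's own strand, and S100P on the plus strand at chr4:6693745-6693772, with the match 123 bases before it on the opposite strand. Capitals mark the match. All 3 windows, that of CHAC1 included, touch an annotated exon. By the deposited gene coordinates they lie inside their genes, although they precede the RefSeq start sites.
BCL2A1: tattataaagTGATGCAAacagaaattc
S100P: caacgatgcaTTTCATCAgaactgagca

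Among genes of amino acid transport and synthesis, SLC7A11 and PSAT1 rose. SLC7A11, the cystine importer, was at 278 and 509 in the untreated pair, 1336 in VEM and 1388 in VEM+BOR (log2 difference 1.85, adjusted p = 0.0481). PSAT1, an enzyme of serine synthesis, was at 2155 and 2475, then 7028 and 5642 (1.45, adjusted p = 0.0449). In both genes each treated library exceeded both untreated ones. ASNS, asparagine synthetase, was at 63.0 and 51.0, then 348 and 182 (2.13, adjusted p = 0.0829). The ASNS groups did not overlap, but the gene did not pass. PHGDH, PCK2, SLC7A5, SLC3A2, MTHFD2, GPT2 and CTH likewise lay above the untreated range without passing, while ALDH18A1 and PYCR1, enzymes of proline synthesis, overlapped it.

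The signalling members of the response that rose were TRIB3, SESN2 and STC2. TRIB3 is a pseudokinase that inhibits AKT and ATF4. TRIB3 was at 990 and 1415 in the untreated pair, 3290 in VEM and 3404 in VEM+BOR (log2 difference 1.50, adjusted p = 0.0449). SESN2, a leucine sensor upstream of mTORC1, was at 461 and 334, then 1105 and 1234 (1.57, adjusted p = 0.0449). STC2, a secreted glycoprotein, was at 853 and 1161, then 2960 and 3147 (1.62, adjusted p = 0.0381). In these 3 genes the treated pair nearly coincided. ATF4 itself, whose control is mainly translational, was at 6534 and 9364, then 16026 and 14862 (0.98, adjusted p = 0.267). VLDLR, a lipoprotein receptor, rose from 1252 and 1228 to 2965 and 3143 (1.30, adjusted p = 0.0449); its gene overlaps the antisense gene VLDLR-AS1, and reads of the pair cannot be told apart because no strand-marking step is named.

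The promoter of SESN2 was the only 1 of the 25 with the kappa B letters GGANTTTCC, which 1.64% of all promoters hold. It is printed because these letters are the kind that NF-kB factors bind, and genes known to respond to NF-kB are described further on. The window is chr1:28259365-28259433, plus strand, with the match 123 bases before the start site in capitals.
SESN2: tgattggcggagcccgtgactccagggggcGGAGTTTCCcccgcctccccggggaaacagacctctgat

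**Figure D2:**
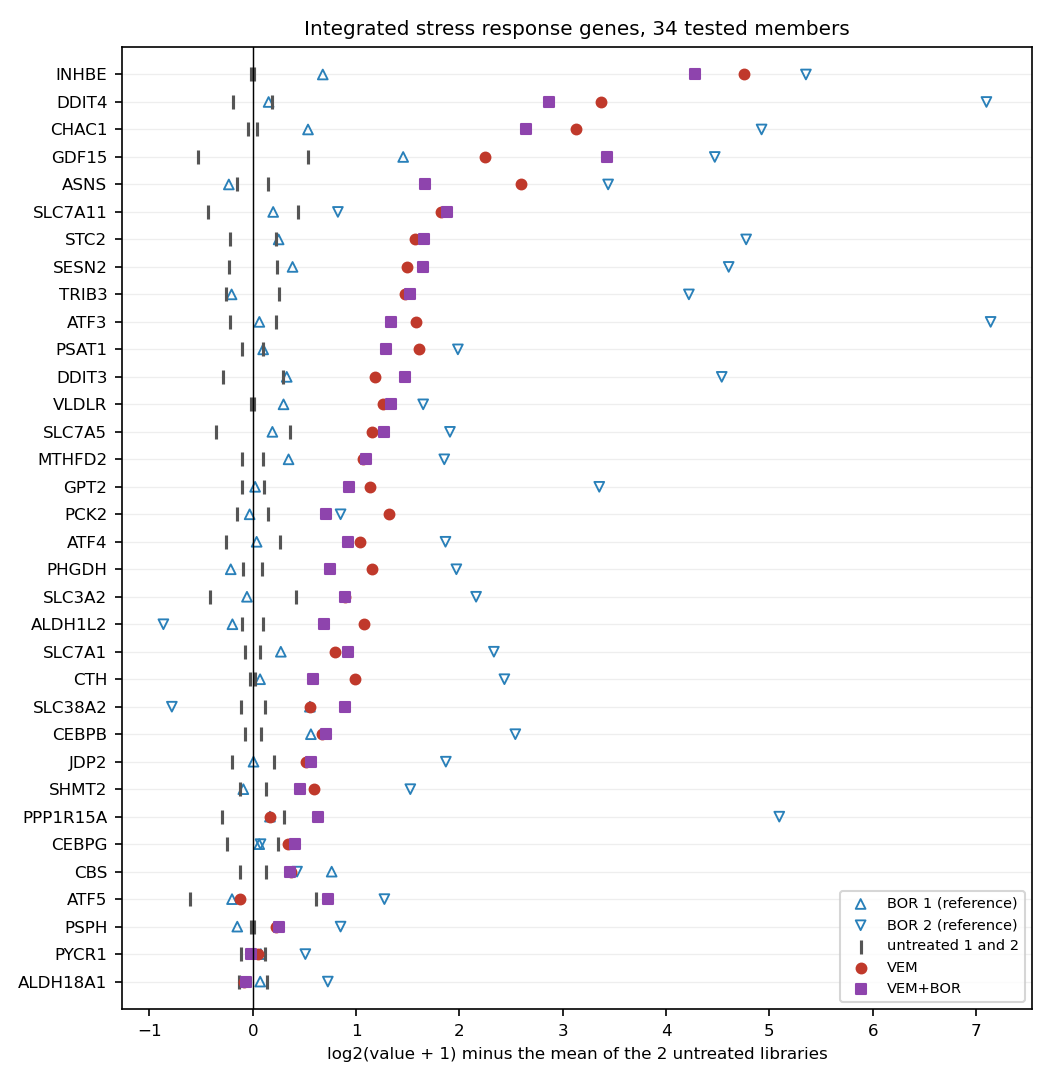
Difference of each library from the untreated mean in log2(value + 1) (horizontal axis) for the 34 tested genes of the integrated stress response (vertical axis). Grey bars are untreated 1 and 2, red circles VEM, purple squares VEM+BOR and open blue triangles the BOR reference libraries; in 30 of the 34 genes VEM and VEM+BOR both lie to the right of both untreated values, and the other 4 are PPP1R15A, ATF5, PYCR1 and ALDH18A1.

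The plot of stress response genes shows VEM and VEM+BOR close to each other in most rows. VEM+BOR was the higher of them in 19 of 34 genes, against 55.0% of all genes tested. Other stress lists held no called gene, but at the share called over all genes tested, 0.22%, lists of this size would rarely hold any. Of 20 aminoacyl-tRNA synthetases, 22 chaperones of the endoplasmic reticulum, 18 cytosolic heat shock proteins and 30 proteasome subunits, 0 passed in either direction (limma, adjusted p under 0.05), with medians of 0.06, 0.06, -0.09 and -0.24. Both treated values lay above the untreated range in 6 of 20 synthetases, 6 of 22 chaperones, 3 of 18 heat shock proteins and 0 of 30 proteasome subunits, against 19.4% of all genes tested, and below it in 3, 2, 2 and 8, against 14.4%. Whether these lists differ from the integrated stress response was not tested. Over the proteasome genes untreated 2 exceeded untreated 1 by a median of 0.59, which is larger than the difference between the sides.

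The called genes of the 2 myeloid lists lay on both sides. PADI4 and CLEC5A of the late myeloid list rose, while MPO, an enzyme of the azurophil granules that promyelocytes fill, fell. The fall rests on MPO alone, at a limma adjusted p of 0.0481. MPO passed in 8 of the 20 alternative analyses, PADI4 in 13 and CLEC5A in 10. Of 36 late myeloid genes listed 27 were tested, 2 rose (against 0.2% of all genes tested) and 0 fell (against 0.0194%). Of the 27, 15 lay above the untreated range (55.6%, against 19.4% of all genes tested) and 5 below (against 14.4%). The median difference was 1.12 (0.59 for VEM, 1.29 for VEM+BOR, -0.35 for untreated 2 against untreated 1). Of 16 azurophil granule genes 14 were tested, 0 rose (against 0.2%) and 1 fell (against 0.0194%). Of the 14, 3 lay above the untreated range (against 19.4%) and 7 below (against 14.4%), with a median of -0.22.

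PADI4 converts arginine to citrulline in histones and acts in the release of neutrophil chromatin. It stood at 250 and 88.3 in the untreated pair, 1421 in VEM and 3374 in VEM+BOR (log2 difference 3.87, SE 0.50, adjusted p = 0.0335). The untreated values differed by more than in the stress genes, yet the treated values were far above both, with VEM+BOR the highest. BOR 1 and BOR 2 were at 576 and 565, between the sides. PADI4 (ENSG00000159339) lies on chromosome 1 at 17308195 to 17364004. CLEC5A, a receptor of monocytes and neutrophils that signals through TYROBP, was at 24.9 and 33.3, then 156 and 192 (2.54, adjusted p = 0.0449).

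OLFM4 marks a subset of neutrophils and their precursors. It was at 37.3 and 39.2 in the untreated pair, 263 in VEM and 274 in VEM+BOR (log2 difference 2.78, SE 0.32, adjusted p = 0.0284), with 106 and 141 in BOR 1 and 2. The pairs on either side nearly coincided. Promoters of PADI4 and OLFM4 were the 2 of 25 that held the AP-1 letters TGANTCA, against 7.71% of all promoters; AP-1 is the dimer of FOS and JUN factors that ERK signalling feeds, and the windows are shown for that reason. PADI4 is at chr1:17308113-17308179 with the match 54 bases before the start site, and OLFM4 at chr13:53028646-53028712 with the match 137 bases before it, both on the plus strand with the match in capitals.
PADI4: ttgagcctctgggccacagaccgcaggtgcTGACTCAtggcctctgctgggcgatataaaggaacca
OLFM4: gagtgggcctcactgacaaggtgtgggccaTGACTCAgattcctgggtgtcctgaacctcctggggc

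The called genes C5AR1, CD55, ANXA1 and S100P, which were grouped here after the calls and stand in no list, rose as well. C5AR1, the receptor for complement fragment C5a, was at 2.66 and 10.8 in the untreated pair, 98.6 in VEM and 169 in VEM+BOR (log2 difference 4.31, SE 0.64, adjusted p = 0.0449). C5AR1 was low in untreated cells and far higher in each treated library. CD55, which protects cells from complement, was at 620 and 682, then 2024 and 3193 (1.97, adjusted p = 0.033). ANXA1, an anti-inflammatory phospholipid-binding protein of granulocytes, was at 740 and 760, then 1816 and 2564 (1.52, adjusted p = 0.0449). S100P, a calcium-binding protein, was at 433 and 536, then 1429 and 1950 (1.79, adjusted p = 0.0381).

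Other late myeloid genes lay above the untreated range without passing. FGR, a SRC-family kinase of myeloid cells, was at 233 and 111 in the untreated pair, 631 in VEM and 1622 in VEM+BOR (log2 difference 2.65, adjusted p = 0.0697). NLRP12 was at 38.2 and 20.6, then 105 and 257 (2.51, adjusted p = 0.125). ITGAM, the CD11b chain, was at 512 and 220, then 1127 and 1249 (1.82, adjusted p = 0.107). In all 3 VEM+BOR was the highest of the 4 libraries. S100A8, a calcium-binding alarmin chosen here after its values were seen, was at 1483 and 2106, then 3367 and 7317, with 3643 and 4787 in BOR 1 and 2 (1.49, adjusted p = 0.191). TYROBP, the adaptor of CLEC5A and likewise chosen after its values were seen, was at 22.2 and 14.7, then 15.7 and 137, with 180 and 181 in BOR 1 and 2. Its VEM value lay within the untreated range, and VEM+BOR lay near BOR alone. VEM+BOR was above VEM in 22 of 27 late myeloid genes, against 55.0% of all genes tested. VEM+BOR against VEM has 1 library on each side and no test.

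**Figure D3:**
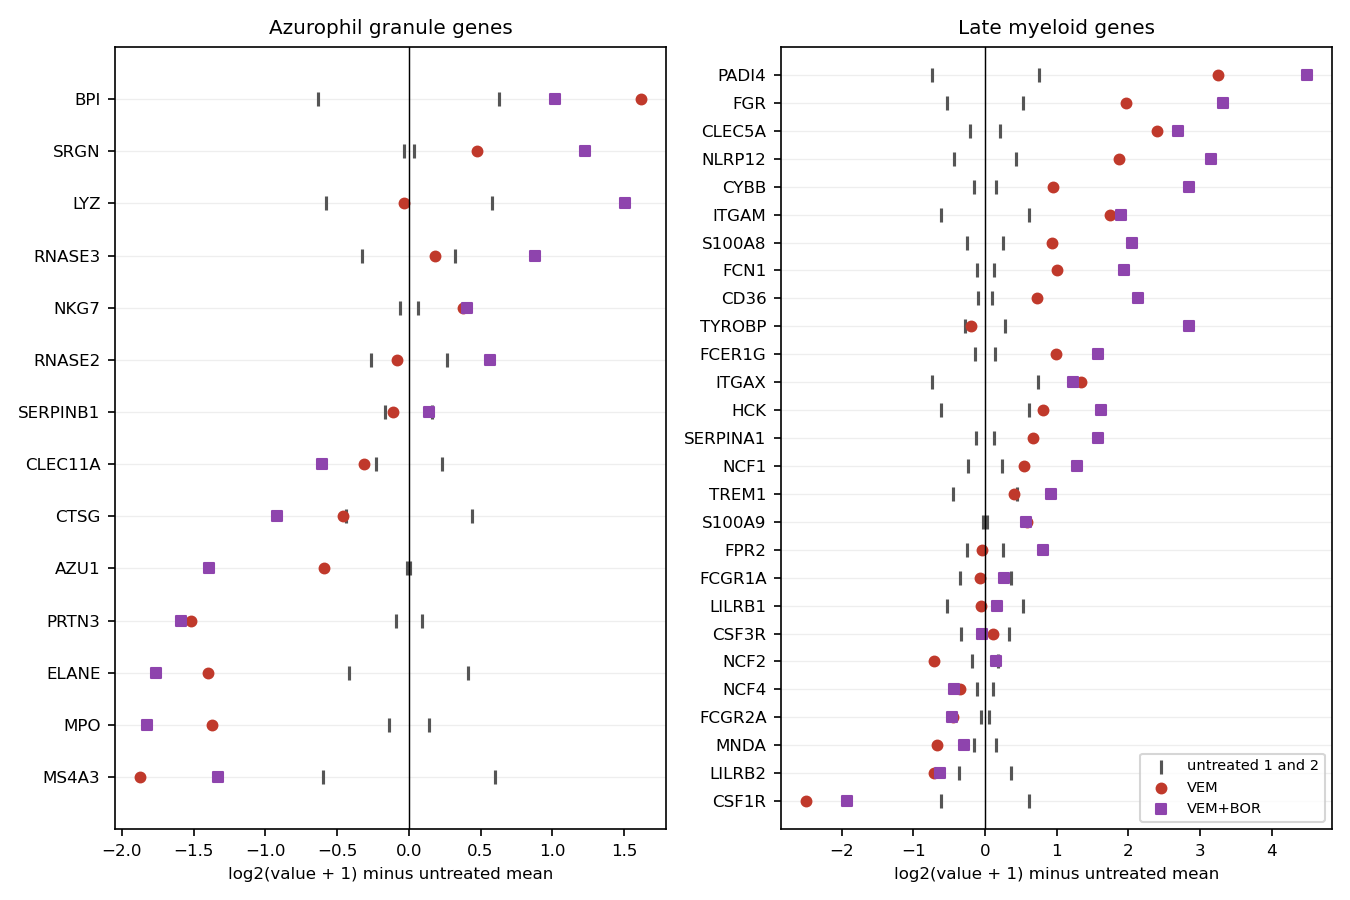
Difference of each library from the untreated mean in log2(value + 1) (horizontal axes) for the 14 tested azurophil granule genes (left) and the 27 tested late myeloid genes (right). Grey bars are untreated 1 and 2, red circles VEM and purple squares VEM+BOR; MPO, ELANE, PRTN3 and AZU1 lie to the left of the untreated pair, and PADI4, FGR, CLEC5A and NLRP12 to the right.

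MPO, myeloperoxidase, makes hypochlorous acid. It was at 18696 and 15445 in the untreated pair, 6551 in VEM and 4787 in VEM+BOR, and so fell by 1.60 on the log2 scale (SE 0.25, adjusted p = 0.0481). BOR 1, at 17239, lay within the untreated range and BOR 2, at 41948, above it. The neutrophil serine proteases, which sit in the same granules, had similar values without passing. PRTN3, proteinase 3, was at 47180 and 53629, then 17520 and 16767 (log2 difference -1.55, adjusted p = 0.0687). ELANE, neutrophil elastase, was at 18259 and 32391, then 9202 and 7173 (-1.58, adjusted p = 0.107). The plot of granule and late myeloid genes shows that not every granule gene lay on that side. BPI, the bactericidal protein of the same granules, was at 4355 and 1812, then 8628 and 5684 (1.32, adjusted p = 0.381). CSF1R, the receptor of the macrophage growth factor, is not a granule gene and was chosen here after its values were seen. It lay below the untreated range, as MPO did, at 111 and 47.1, then 11.98 and 18.3 (-2.21, adjusted p = 0.244). As for the defining markers of other cell types, the epithelial sum was 10.8 to 13.3 in the untreated pair and 10.1 to 19.4 in the treated pair, and the B and plasma cell sum was 115 to 257 and 142 to 191. For T and NK cells the sum was 1562 to 2415 and 1849 to 1924, for erythroid cells and megakaryocytes 54.9 to 149 and 75.2 to 148, and for fibroblasts and endothelium 58.8 to 208 and 71.6 to 73.7. Each treated range of the last 4 sums lay within the untreated range.

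The other falls were outside the myeloid lists. UCA1, a long non-coding RNA first described in bladder cancer, was at 1361 and 817 in the untreated pair, 142 in VEM and 39.5 in VEM+BOR, and fell by 3.79 on the log2 scale (SE 0.52, adjusted p = 0.0381). BOR 1, at 260, was also below both untreated values, and BOR 2, at 1355, lay within their range. UCA1 (ENSG00000214049) lies on chromosome 19 at 15828206 to 15836326, plus strand. ADAMDEC1, a secreted metalloprotease of macrophages and dendritic cells, was at 85.2 and 136, then 12.9 and 12.8, and fell by 2.97 (adjusted p = 0.0481).

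The chemokines CCL5 and CCL3 rose in the treated libraries. Of 27 chemokine and cytokine genes listed 18 were tested, 2 rose (against 0.2% of all genes tested) and 0 fell (against 0.0194%). Of the 18, 12 lay above the untreated range (66.7%, against 19.4% of all genes tested) and none below (against 14.4%). The median difference was 1.03, with 0.87 for VEM, 1.35 for VEM+BOR and 0.01 for untreated 2 against untreated 1. CCL5, which draws T cells and monocytes, was at 1765 and 907 in the untreated pair, 8478 in VEM and 6108 in VEM+BOR (log2 difference 2.51, SE 0.31, adjusted p = 0.033). CCL3, which draws monocytes and other leukocytes, was at 176 and 96.1, then 580 and 668 (2.25, adjusted p = 0.0449). CCL3 has a near-identical copy, CCL3L1, and its reads could be split or dropped in counting.

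Other chemokines differed more within each side. CXCL8, the neutrophil attractant, was at 950 and 3116 in the untreated pair, 7762 in VEM and 19942 in VEM+BOR (log2 difference 2.85, adjusted p = 0.107). CCL2, the monocyte attractant, was at 71.9 and 265, then 451 and 1388 (2.51, adjusted p = 0.244). Both were over 3 times higher in untreated 2 than in untreated 1, and neither passed. TNF, an inflammatory cytokine chosen here after its values were seen, was at 4.44 and 5.88, then 28.6 and 77.1 (2.97, adjusted p = 0.157). VEGFA was at 1517 and 1544, then 2808 and 3526 (1.04, adjusted p = 0.115).

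Among 22 genes that NF-kB is known to induce and that mostly feed back on it, 2 rose and 0 fell, with a median of 0.37. Of all genes tested 0.2% rose and 0.0194% fell. Both treated values lay above the untreated range in 13 of the 22 (59.1%, against 19.4% of all genes tested). They lay below it in 1 (against 14.4%). PTGS2, the inducible cyclooxygenase of prostaglandin synthesis, was at 60.4 and 64.7 in the untreated pair, 297 in VEM and 420 in VEM+BOR (log2 difference 2.48, SE 0.31, adjusted p = 0.033). BCL2A1, an antiapoptotic member of the BCL2 family, was at 87.0 and 54.9, then 277 and 373 (2.20, adjusted p = 0.0481). The feedback inhibitors NFKBIA and TNFAIP3 did not pass. NFKBIA, at 577 and 734, then 609 and 602, overlapped between the sides. TNFAIP3, at 271 and 267, then 418 and 523, lay above the untreated range (0.80, adjusted p = 0.447). Of 15 tested BCL2 family genes BCL2A1 alone rose (against 0.2% of all genes tested) and 0 fell (against 0.0194%). In that family 7 lay above the untreated range (46.7%, against 19.4% of all genes tested) and 1 below (against 14.4%). MCL1, another survival factor, was at 6392 and 7216, then 12303 and 12706 (0.88, adjusted p = 0.24).

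EGR1 was the only immediate early transcription factor of 20 tested that rose (against 0.2% of all genes tested), and 0 fell (against 0.0194%). It was at 204 and 108 in the untreated pair, 1219 in VEM and 685 in VEM+BOR (log2 difference 2.61, SE 0.37, adjusted p = 0.0436). EGR1 (ENSG00000120738) lies on chromosome 5 at 138465490 to 138469315. BOR 1, at 112, lay within the untreated range, and BOR 2 was at 16086. Over the 20 genes the median was 0.45, and 13 lay above the untreated range (65.0%, against 19.4% of all genes tested) and 1 below (against 14.4%). JUND was at 1230 and 1277, then 2744 and 2680 (1.11, adjusted p = 0.0697). FOSB, at 32.0 and 28.4, then 59.9 and 96.3, and FOSL2, at 48.8 and 28.4, then 60.8 and 178, were low and did not pass (adjusted p = 0.508 and 0.615). FOS itself, at 44.4 and 44.1, then 45.2 and 76.1, was nearly level between untreated cells and VEM.

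Of 17 feedback genes of ERK 0 were called in either direction (limma, adjusted p under 0.05), against 0.22% of all genes tested. Their median was 0.37, and 10 of 17 lay above the untreated range (58.8%, against 19.4% of all genes tested) and 1 below (against 14.4%). PHLDA1 had the largest difference, at 22.2 and 25.5 in the untreated pair, 74.7 in VEM and 160 in VEM+BOR (2.15, adjusted p = 0.155). ETV5, an ETS factor downstream of ERK, was at 1509 and 1188, then 2171 and 2445 (0.78, adjusted p = 0.317). DUSP5, a nuclear ERK phosphatase, was at 374 and 357, then 546 and 604 (0.65, adjusted p = 0.552), and SPRY1, a Sprouty inhibitor, at 336 and 373, then 532 and 509 (0.55, adjusted p = 0.719). DUSP6, the cytoplasmic ERK phosphatase, was low at 7.99 and 18.6, then 33.2 and 28.4.

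The kinases of the pathway were near level. Of 13 RAS, RAF, MEK and ERK genes and their regulators 0 passed (against 0.22% of all genes tested). Of the 13, 4 lay above the untreated range (30.8%, against 19.4% of all genes tested) and 0 below (against 14.4%), and the median was 0.10. BRAF, the target of the drug, was at 304 and 288 in the untreated pair, 299 in VEM and 345 in VEM+BOR (log2 difference 0.12, SE 0.25, adjusted p = 0.999). ARAF, a paralogue of BRAF, differed by -0.18 (SE 0.22, adjusted p = 0.999).

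The title of the series names senescence, and genes of cell cycle arrest and division were read for that reason. Of 8 cyclin-dependent kinase inhibitors 7 were tested and 0 passed (against 0.22% of all genes tested). Of the 7, 5 lay above the untreated range (71.4%, against 19.4% of all genes tested) and 1 below (against 14.4%). The median was 0.62, and -0.46 for untreated 2 against untreated 1. CDKN1A, which encodes p21, was at 863 and 356 in the untreated pair, 1243 in VEM and 1204 in VEM+BOR (log2 difference 1.14, SE 0.36, adjusted p = 0.468). The treated values of CDKN1A nearly coincided, and the untreated values differed by more than the nearer of them differed from VEM. CDKN2A, which encodes p16 and p14ARF, was at 5726 and 6357, then 9869 and 8728 (0.62, adjusted p = 0.549). CDKN2D was at 196 and 114, then 318 and 318 (1.09, adjusted p = 0.403).

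Markers of division gave no call. Among 30 genes of mitosis and the spindle 0 passed (against 0.22% of all genes tested). Of the 30, 3 lay above the untreated range (against 19.4% of all genes tested) and 11 below (against 14.4%). The median was -0.12 (-0.23 for VEM and -0.03 for VEM+BOR). MKI67, the antigen Ki-67 of cycling cells, was at 7068 and 5410 in the untreated pair, 1978 in VEM and 3587 in VEM+BOR (log2 difference -1.21, SE 0.29, adjusted p = 0.228). CENPF, a kinetochore protein, was at 3930 and 1923, then 1031 and 1695 (-1.06, adjusted p = 0.507). CDK1, the mitotic kinase, lay on the other side, at 2531 and 2334, then 4098 and 5201 (0.93, adjusted p = 0.187). MKI67 and CDK1 thus lay on opposite sides of the untreated range.

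Of 32 tested genes of DNA replication 0 passed (against 0.22% of all genes tested), with a median of -0.10. Of these, 4 lay above the untreated range (12.5%, against 19.4% of all genes tested) and 11 below (against 14.4%). Of 11 nuclear genes whose loss or gain accompanies senescence 0 passed (against 0.22%), with a median of 0.04. In that list 3 lay above the untreated range (27.3%, against 19.4%) and 2 below (against 14.4%). LMNB1, the lamin B1 whose loss is a common mark of senescent cells, was at 5099 and 5512 in the untreated pair, 5806 in VEM and 6254 in VEM+BOR (log2 difference 0.18, SE 0.20, adjusted p = 0.999). Of 21 tested p53 targets SESN2 alone rose (against 0.2% of all genes tested) and 0 fell (against 0.0194%), with a median of 0.21. Here 8 lay above the untreated range (38.1%, against 19.4% of all genes tested) and 1 below (against 14.4%). GADD45A was at 1300 and 1002, then 2692 and 2462 (1.17, adjusted p = 0.0865). MDM2, a direct p53 target, was at 329 and 466, then 364 and 497 and overlapped (0.12, adjusted p = 0.999).

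HIPPO genes were read because the title names the pathway. Of 33 core components 31 were tested and 0 passed in either direction (limma, adjusted p under 0.05), against 0.22% of all genes tested. Of the 31, 13 lay above the untreated range (41.9%, against 19.4% of all genes tested) and 2 below (against 14.4%). The median was 0.32, and untreated 2 differed from untreated 1 by a median of -0.37 over the same genes, which is of similar size. YAP1, the coactivator, was at 203 and 91.2 in the untreated pair, 209 in VEM and 214 in VEM+BOR (log2 difference 0.63, SE 0.39, adjusted p = 0.934). The treated values lay just above untreated 1 and well above untreated 2. FAT1, an upstream cadherin, was at 2075 and 1606, then 787 and 1468 (-0.76, adjusted p = 0.669), with the VEM value the lowest. MOB1B, a LATS cofactor, was at 758 and 518, then 908 and 949 (0.57, adjusted p = 0.766), and STK3, which encodes the kinase MST2, at 370 and 326, then 537 and 479 (0.55, adjusted p = 0.766).

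Targets of YAP and TEAD were also without a call. Of 24 listed 15 were tested and 0 passed (against 0.22% of all genes tested). Of the 15, 5 lay above the untreated range (33.3%, against 19.4% of all genes tested) and 2 below (against 14.4%), and the median was 0.22. CYR61, a classical YAP target, was at 63.0 and 80.4 in the untreated pair, 69.1 in VEM and 73.4 in VEM+BOR, all within the untreated range. ASAP1 was at 1221 and 999, then 1562 and 1764 (0.59, adjusted p = 0.585), and CRIM1 at 913 and 818, then 1217 and 1303 (0.54, adjusted p = 0.625). JAG1, the Notch ligand, which is in none of these lists, rose from 960 and 995 to 2548 and 4008 (1.71, adjusted p = 0.0449).

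Among 7 tested genes of the aryl hydrocarbon receptor, which senses dioxins and many planar compounds, 0 passed in either direction (against 0.22% of all genes tested). In 3 of the 7 both treated values lay below the untreated range, against 14.4% of all genes tested, and in 0 above it, against 19.4%. The receptor AHR, its partner ARNT and the targets TIPARP (log2 difference 0.09) and NQO1 (-0.34) overlapped between the sides. CYP1A1, its classical target, was at 183 and 233 in the untreated pair, 54.4 in VEM and 31.2 in VEM+BOR (log2 difference -2.30, SE 0.38, adjusted p = 0.0687). CYP1B1 was at 1339 and 1798, then 701 and 605 (-1.25, adjusted p = 0.0865), and AHRR, the repressor of the receptor, at 850 and 906, then 452 and 361 (-1.12, adjusted p = 0.125). BOR 1, at 147, and BOR 2, at 100, were between the sides for CYP1A1.

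Of the genes that rose, the remaining ones act at the membrane, in metabolism or in transcription. GDAP1L1, a paralogue of the mitochondrial fission factor GDAP1, was at 4.44 and 5.88 in the untreated pair, 84.8 in VEM and 138 in VEM+BOR (log2 difference 4.16, SE 0.52, adjusted p = 0.033). CACNA2D1, an auxiliary subunit of calcium channels, was at 829 and 726, then 2695 and 3226 (1.93, SE 0.21, adjusted p = 0.0188), with BOR 2 at 164, below both untreated values. SGK1, a kinase that promotes survival and sodium transport, was at 47.0 and 81.4, then 265 and 387 (2.35, adjusted p = 0.0481). SP140, a chromatin reader of leukocytes, was at 61.3 and 31.4, then 244 and 253 (2.48, adjusted p = 0.0481). In all 4 genes each treated library exceeded both untreated ones by more than 3 times. SLC2A3, the glucose transporter GLUT3, rose from 268 and 292 to 719 and 1075 (1.65, adjusted p = 0.0482), and shares reads with its near-identical copy SLC2A14. ADM2, a peptide of the calcitonin family, ANTXR2, a collagen-binding receptor, and RFLNB, a filamin-binding protein, rose by log2 differences of 1.67, 1.49 and 1.34.

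**Figure D4:**
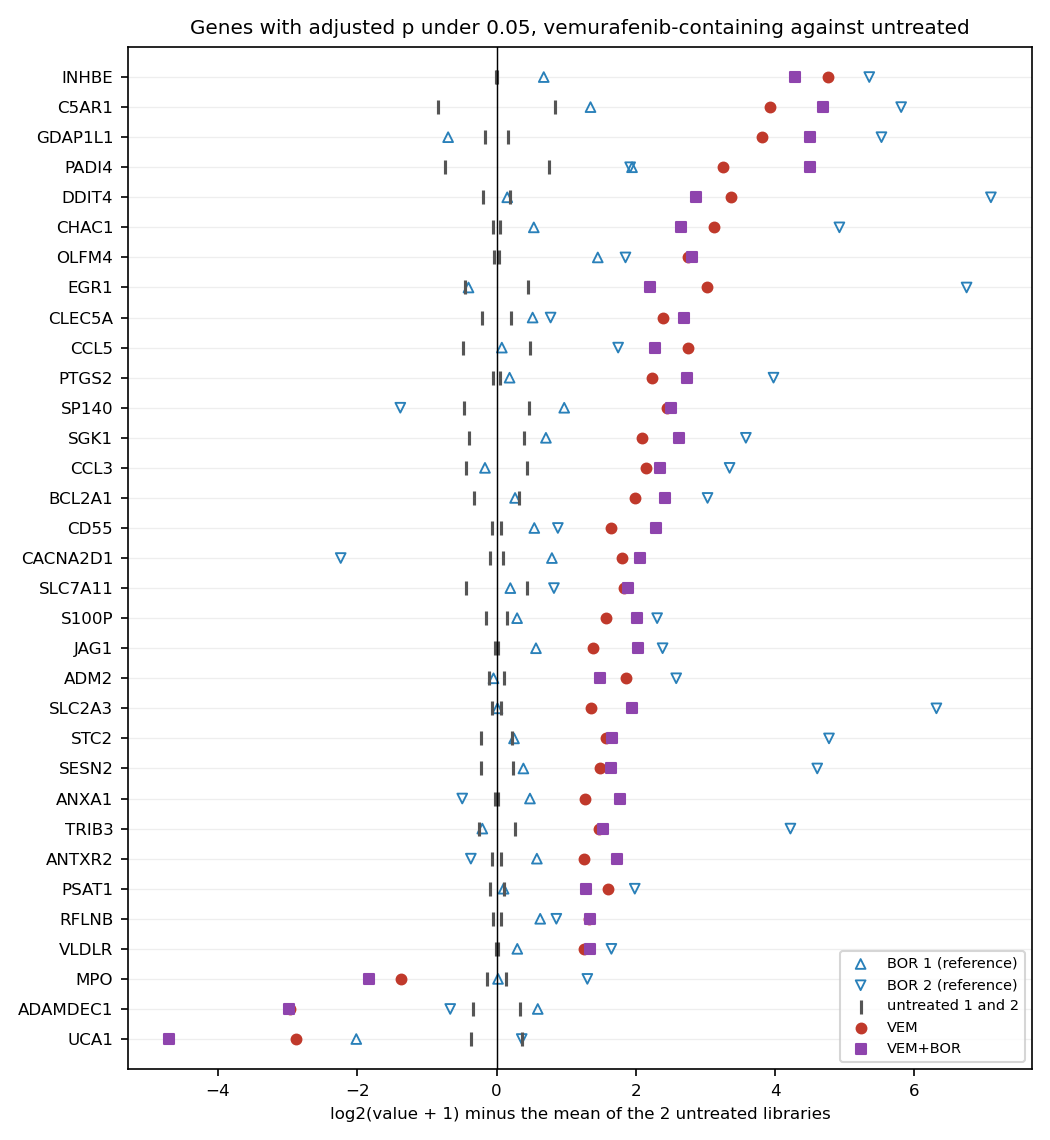
Difference of each library from the untreated mean in log2(value + 1) (horizontal axis) for 33 of the 34 genes with an adjusted p under 0.05 (vertical axis), ordered by difference. Grey bars are untreated 1 and 2, red circles VEM, purple squares VEM+BOR and open blue triangles the BOR references; all circles and squares lie outside the grey bars, and the BOR 1 triangles lie to the left of the circles and squares in all 30 drawn genes that rose.

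The plot of called genes places the BOR references beside the treated pair. BOR 1 was below both vemurafenib-containing values in 31 of the 31 genes that rose, and above both untreated values in 20. BOR 2 was above both untreated values in 26 of them, above both vemurafenib-containing values in 19, and below both untreated values in 5. Both BOR libraries were above both untreated values in 16. These counts use the same untreated libraries as the calls and are given as values only. VEM+BOR was above VEM in 24 of the 31, against 55.0% of all genes tested. VEM was the higher in the other 7, which were INHBE, DDIT4, CHAC1, EGR1, CCL5, ADM2 and PSAT1. In the authors' deposited tables, which set each treated library against the same untreated pair, 12 of the 34 had an adjusted p under 0.05 for VEM, 27 for VEM+BOR and 30 for at least 1 of the libraries.

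In some genes the VEM and VEM+BOR values lay on opposite sides of the untreated range, which pooling them hides. In 1266 genes (8.18% of those tested) VEM lay on 1 side of the untreated range and VEM+BOR on the other, 843 of them with a mean of at least 50. Each such value rests on 1 library, and whether the count exceeds the scatter of single libraries was not tested. The genes named next were picked by the width of the gap. The widest gap was that of CLU, the secreted chaperone clusterin, with 441 and 345 in the untreated pair, 279 in VEM and 1753 in VEM+BOR, beside 1341 and 1528 in BOR 1 and 2. TNFSF10, the death ligand TRAIL, was at 195 and 194 in the untreated pair, 95.9 in VEM and 303 in VEM+BOR, with 302 and 265 in BOR 1 and 2. For both genes VEM+BOR lay near BOR alone and on the other side of untreated cells from VEM. U2AF1, a splicing factor with a near-identical copy in some genome builds, was at 159 and 206 in the untreated pair, 122 in VEM and 411 in VEM+BOR. Its BOR 1 and BOR 2 values, 189 and 200, lay within the untreated range and not near VEM+BOR.

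**Figure D5:**
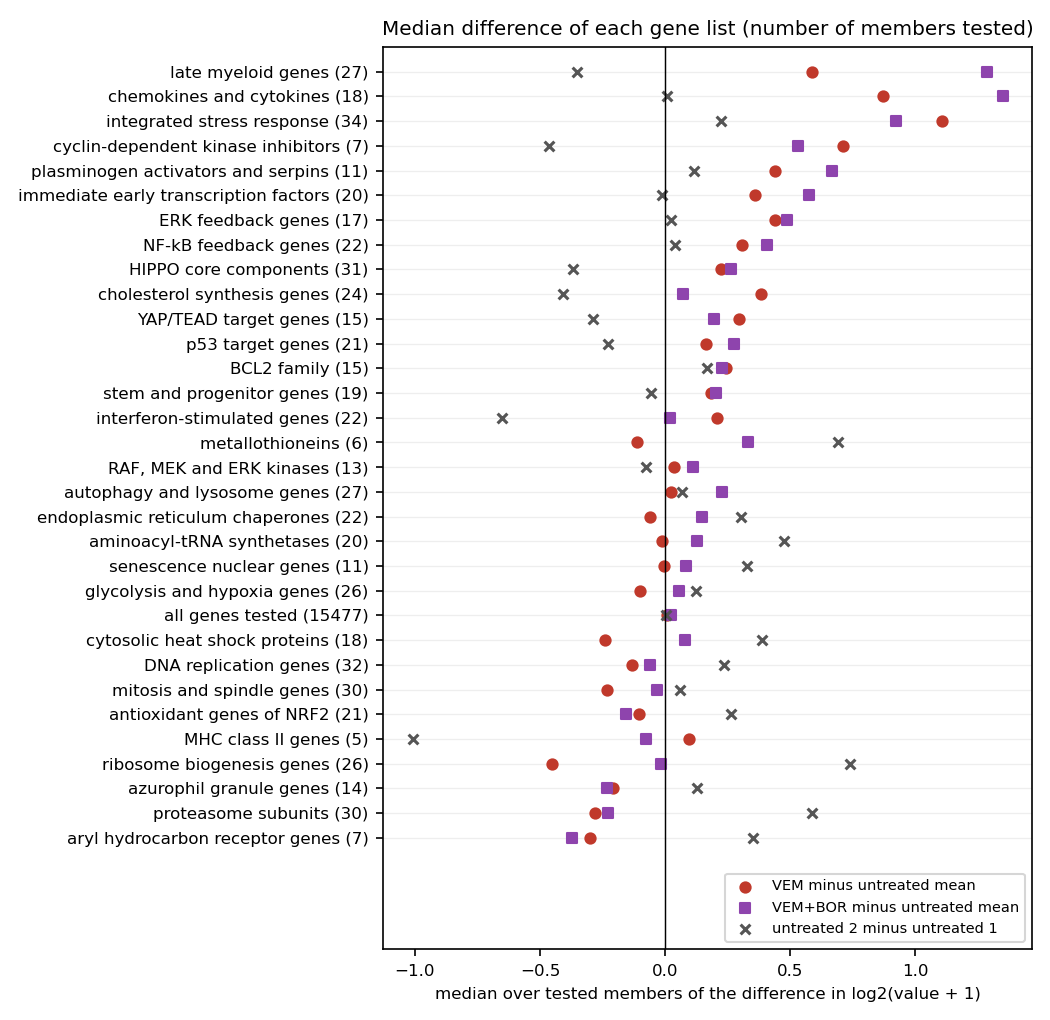
Median difference in log2(value + 1) over the tested members of each list (horizontal axis), with the number of members tested in brackets beside the list (vertical axis). Red circles are VEM minus the untreated mean, purple squares VEM+BOR minus the untreated mean and crosses untreated 2 minus untreated 1; the VEM medians of the integrated stress response (1.11), chemokines and cytokines (0.87) and cyclin-dependent kinase inhibitors (0.71) and the VEM+BOR medians of chemokines and cytokines (1.35), late myeloid genes (1.29) and the integrated stress response (0.92) lie farthest to the right, while those of all genes tested lie near 0.

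The plot of list medians sets each list beside the spread of the untreated pair. The median of the integrated stress response was between 0.36 and 1.16 in all 20 alternatives, that of chemokines and cytokines between 0.72 and 1.35, and that of late myeloid genes between 0.36 and 1.29. Lists where untreated 2 departed from untreated 1 by more than the treated libraries did include ribosome biogenesis (0.74 for the untreated pair, -0.45 for VEM and -0.02 for VEM+BOR), interferon-stimulated genes (-0.65, 0.21 and 0.02) and the 5 tested MHC class II genes (-1.01, 0.10 and -0.08). No gene of those 3 lists passed in either direction (limma, adjusted p under 0.05), against 0.22% of all genes tested. VEM+BOR was above VEM in 25 of 26 ribosome biogenesis genes, 27 of 30 mitosis genes and 5 of 24 cholesterol synthesis genes, against 55.0% of all genes tested. Over the lists this share ran from 20.8% (cholesterol synthesis) to 100% (the 6 tested metallothioneins). VEM and VEM+BOR are 1 library each, and their difference was not tested.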

How the data were processed

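The 6 RNA-seq libraries of SKM-1 cells were grouped by their treatment labels; 4 enter the main test and 2 BOR libraries are a reference. Per the labels' protocols, poly-T bead mRNA was primed with random hexamers and sequenced in pairs. The submitters' processing notes name, without a role, the aligner HISAT2 2.0.5, the read counter featureCounts 1.5.0-p3, CASAVA, edgeR 3.22.5 and DESeq2 1.20.0. They name no genome build; deposited coordinates match GENCODE 29 (GRCh38) for 23514 of 23519 genes.

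The authors deposited 3 tables of a normalised signal per gene and library, that is, read counts over a factor of each library. The log2 fold changes and p-values deposited beside them are quoted only where the authors' table is named. All values (100%) were whole multiples of a column's step within 0.001, so reads were recovered, also for VEM, whose step is near 1. Recovered reads are 17252404 to 18337577 in the 4 libraries, and low genes have lower precision.

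Tables were joined over 23519 genes of 26704, rescaled over all 6 libraries with median-of-ratios factors, and kept at a mean of at least 10 over the 4 compared (15477 genes). In R 4.3.3, limma (version 3.58.1, with its trend option) was fitted to log2(value + 1), two-sided, with Benjamini-Hochberg adjustment over all genes tested. Because of the pseudocount of 1, log2 differences of low genes are understated; the fit had 2 residual degrees of freedom and 7.38 prior ones. Alternatives ran DESeq2 1.42.0 or edgeR 4.0.16 on the recovered reads, other scalings, filters and pseudocounts, and left out each library in turn. The script was tested on simulated data. Where a library was left out, the lone one was assumed to vary like the others.

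Named genes were up to 15 called rises and falls, up to 4 members of a list with a mean of at least 50, a fixed set, and the 5 widest VEM to VEM+BOR gaps across the untreated range. Other names were chosen after their values were seen. A few genes that the rule names are not reported here. Members and lists were chosen with earlier results of these data known. Lists are described by counts and medians, with no test. Promoters are from RefSeq (GRCh38.p14), 250 bases before to 50 after the start; 25 of 34 called genes matched. Windows that touch an exon were shortened.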

Additional observations from a re-analysis of the deposited data

How the results depend on the processing

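Of the 20 alternatives, 19 were planned and 1 (median-of-ratios factors from the 4 libraries, 26 higher and 3 lower) was added after seeing the data. Against 31 genes higher and 3 lower, a mean of at least 50 gave 5 and 0 (835 genes at an unadjusted p under 0.05), no filter on low values 2 and 0 (1218), scaling to the library total 0 and 0 (952), values as deposited 14 and 1, no mean-variance trend 0 and 0 (899), all 6 libraries with additive terms 0 and 0 (180), 5 libraries without BOR 2 0 and 0 (1059), edgeR 9 and 0 (971) and DESeq2 158 and 31. Leaving out 1 library gave from 6 (without VEM+BOR) to 607 (without untreated 1) genes higher and from 1 to 170 lower. The cause was not tested. No result reversed; 66 values of 41 named genes that were not called changed sign, 24 of them in the 6-library fit and 27 where 1 library was left out. Leaving out a library leaves 1 sample on a side. The lowest genes rest on few reads, and those under a mean of 10 were not tested. No paired analysis was possible because the labels give the libraries no replicate numbers.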

Other observations

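Complement regulators next to CD55 had values on the same side. The span of 474138 bases from the start of CD55 to the end of CD46 on chromosome 1 was chosen after its values were seen. All 4 genes tested in it, the called CD55 among them, lay above the untreated range in VEM and VEM+BOR. Of all genes tested 19.4% did. CR1, the receptor for C3b, was at 414 and 208 in the untreated pair, 1045 in VEM and 1150 in VEM+BOR (log2 difference 1.90, limma adjusted p = 0.0675). CD46, a cofactor for the cleavage of C3b, was at 4290 and 2938, then 7678 and 10591 (1.34, adjusted p = 0.107). The fourth, CDCA4P4, is a pseudogene inside CD46, and reads of these overlapping genes cannot be told apart.

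On chromosome 19 the granule proteases AZU1, PRTN3 and ELANE are neighbours of CFD, complement factor D. CFD was at 2727 and 3272 in the untreated pair, 1363 in VEM and 1069 in VEM+BOR (log2 difference -1.31, adjusted p = 0.0675). None of the 4 passed, and all 4 lay below the untreated range, against 14.4% of all genes tested. CFD and AZU1 were chosen here after their values were seen.

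FUT1 and UPP2 were picked for untreated values below 3 and treated values of at least 20. Their contrast therefore follows from the choice, and their adjusted p-values add no support to it. Both genes passed the filter on low values only through the treated libraries. FUT1, a fucosyltransferase, had 0 reads in both untreated libraries and was at 24.9 in VEM and 29.4 in VEM+BOR. That was at least 9.68-fold higher than a floor of 3 reads per untreated library (limma adjusted p = 0.0697). UPP2, a uridine phosphorylase, had 1 read in each untreated library and was at 41.5 in VEM and 25.7 in VEM+BOR (adjusted p = 0.0802). ASS1, which makes argininosuccinate, was at 1660 and 1271, then 3613 and 3503 (1.29, adjusted p = 0.0658), and LRG1, a secreted glycoprotein, at 1822 and 1442, then 4164 and 3690 (1.27, adjusted p = 0.0675).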
